A study of Mus musculus with 4 samples.

Results

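The matricellular and adhesive glycoprotein genes described here are *Postn*, *Tnc*, *Sparc*, *Thbs1*, *Thbs2*, *Ctgf*, *Cyr61*, *Nov*, *Fn1* and *Abi3bp*. They are 10 of the 21352 mouse genes with a usable value, were chosen by name, and were all found in the deposited tables. RNA was sequenced from the palatal mesenchyme of 4 littermate embryos at embryonic day 13.5 (E13.5). Palatal shelves were dissected, dissociated with trypsin and sorted for red fluorescent protein (RFP). Both *Foxf2-/-* mutant embryos carried *Foxf2-/-Osr2RFP/+*, and of the 2 controls 1 was *Foxf2+/+Osr2RFP/+* and 1 was *Foxf2+/-Osr2RFP/+*. All 4 embryos therefore carried the RFP knock-in at 1 *Osr2* allele, which restricted the sort to cells expressing *Osr2*, and all were of mixed background. Loss of *Foxf2* was constitutive, so cells outside the palate lacked it as well. Each control genotype was represented by 1 embryo.

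Matricellular proteins are secreted into the extracellular matrix, where they modulate the attachment of cells, the assembly of collagen and fibronectin fibres and the availability of growth factors, more than they bear load themselves. They act largely through integrins, syndecans and other cell surface receptors, and several are immediate targets of Tgf-beta and of the mechanically regulated co-activators Yap and Taz. In the embryonic palate the mesenchyme lies in a soft matrix rich in fibronectin, tenascin and hyaluronan while the shelves grow and elevate.

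Levels are given as FPKM, fragments per kilobase of transcript scaled to the number mapped, which allows for length and can be compared between genes within an embryo. The 4 values of a gene are given in the order *Foxf2+/+*, *Foxf2+/-*, *Foxf2-/-* replicate 1 and *Foxf2-/-* replicate 2. Differences are on the log2(FPKM + 0.1) scale, the mean of the mutant embryos minus the mean of the controls, and were tested with limma over 11154 genes whose mean over all 4 embryos was at least 1 FPKM. *Foxf2* itself was listed at 85.4, 45.1, 1.41 and 2.28 FPKM. It was low in both *Foxf2-/-* embryos and intermediate in the heterozygote, with a log2 change of -5.03 ± 0.31 (SE) and an adjusted p of 0.00533 (limma, Benjamini-Hochberg). Listed coverage, the mean read depth over a transcript, put the libraries within 1.19-fold of each other in depth, and the number of reads is unknown. The 10 markers of palatal mesenchyme were all above the filter and summed to 744 to 910 FPKM per embryo, with *Osr2* at 143, 144, 129 and 147 FPKM. Of these 10 markers, 6 were below both controls in both mutants and 1 was above (35.8% and 9.89% of all tested genes), with a median log2 change of -0.15 and no limma call. The lowest was *Shox2*, at 114, 73.4, 47.7 and 63.7 FPKM. The 7 endothelial markers were each under 1 FPKM and summed to 0.417, 0.608, 0.893 and 1.503 FPKM with *Cldn5* at 0 throughout, and skeletal muscle markers to 0.131 to 0.355 FPKM with *Myog* at 0 throughout. Epithelial markers summed to 6.32 to 9.09 FPKM. Red blood cell markers differed most, with sums of 18.7, 121, 112 and 277 FPKM. Macrophage markers summed to 7.07 to 11.0 FPKM, pericyte and smooth muscle markers to 48.3 to 54.2 and Schwann and neural markers to 3.23 to 5.75. Cartilage markers summed to 54.6 to 60.5 FPKM and bone markers to 39.5 to 43.7. limma called no gene of these lists, and their single genes are not described here.

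The abundant members set the make-up of the group. *Postn*, which encodes the fasciclin-domain protein periostin that promotes collagen crosslinking, made up 63.9%, 61.5%, 64.4% and 61.4% of the summed FPKM of the 10 genes. *Sparc*, which encodes a collagen-binding counter-adhesive protein, followed with 15.0% to 19.5%, and *Fn1*, encoding the integrin ligand fibronectin, with 11.5% to 12.6%. *Tnc* accounted for 6.76% and 5.75% in the controls and for 4.11% and 3.64% in the mutant embryos. The other 6 genes were each below 1.5% in every embryo. From the mean over the 4 embryos, the levels ran from *Postn* through *Sparc*, *Fn1*, *Tnc*, *Cyr61*, *Thbs1*, *Abi3bp*, *Thbs2* and *Ctgf* to *Nov*, and 6 of the genes held the same rank in every embryo. The exceptions were neighbours. *Thbs1* ranked above *Cyr61* in *Foxf2-/-* replicate 1, and *Thbs2* ranked above *Abi3bp* in both mutant embryos.

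**Figure D1:**
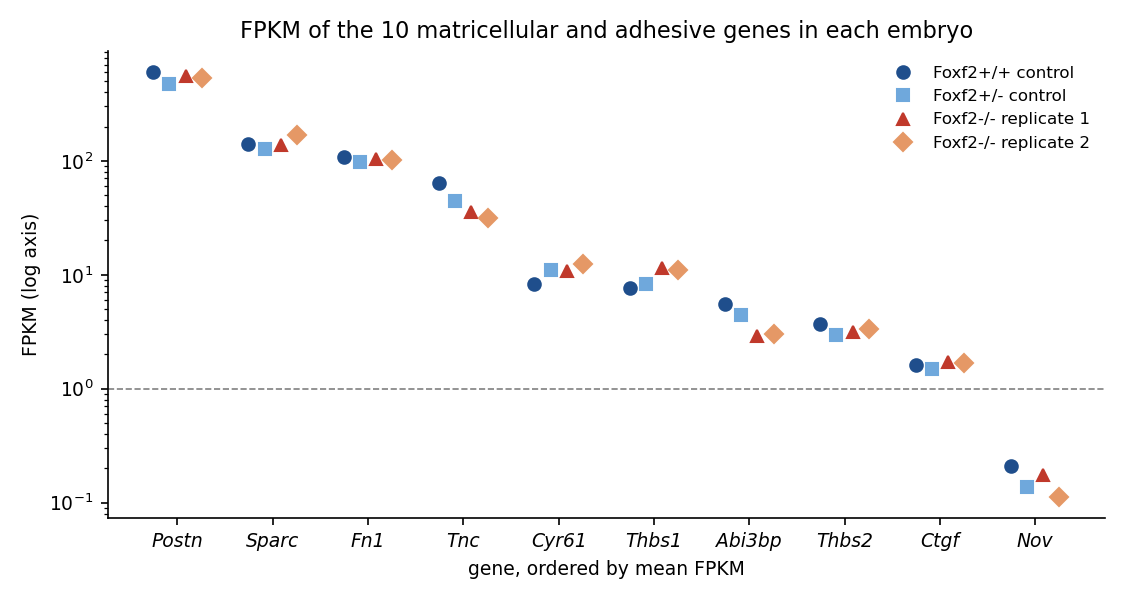
FPKM of each of the 10 genes (log axis) in each embryo, genes ordered by mean FPKM, 1 symbol per embryo; the dashed line marks 1 FPKM. The genes span from *Postn* at 474 to 602 FPKM to *Nov* at 0.113 to 0.211 FPKM, and only *Nov* lies below the line.

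The first question was which of these genes differed between *Foxf2-/-* and control palatal mesenchyme. None of the 9 genes tested passed limma's threshold of an adjusted p under 0.05 with a change over 1.5-fold, which 0.0628% of all tested genes passed (0.0538% higher and 0.00897% lower in the mutants). Against the control mean, *Tnc* and *Abi3bp* exceeded 1.5-fold, as 2.77% of all tested genes did. No member exceeded 1.5-fold against each of the controls taken singly, as 1.4% of all tested genes did (0.717% higher and 0.681% lower). With an unadjusted p under 0.05, as 13% of all tested genes had, there were 3 members, *Tnc* and *Abi3bp* with lower and *Thbs1* with higher values in the mutants. The groups did not overlap for 4 members, as for 45.7% of all tested genes. Both mutant embryos lay above both controls for 2 members (*Thbs1* and *Ctgf*; 9.89% of all tested genes) and below for 2 (*Tnc* and *Abi3bp*; 35.8%). The groups overlapped for the other 5. These shares moved with the scaling, because the median log2 change of all tested genes was -0.081 in the deposited values. After median ratio scaling the groups did not overlap for 42.6% of tested genes, 21% above and 21.6% below, and after upper quartile scaling for 42.3%, 19.7% above and 22.6% below. Under both scalings *Sparc* and *Cyr61* joined *Thbs1* and *Ctgf* above the controls, while *Tnc* and *Abi3bp* stayed below. The median log2 change of the 9 members was 0.027. An exact permutation test of 2 against 2 embryos cannot give a p below 0.333, and in RNA pooled over many cells fewer cells of a type and less RNA per cell cannot be told apart.

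**Figure D2:**
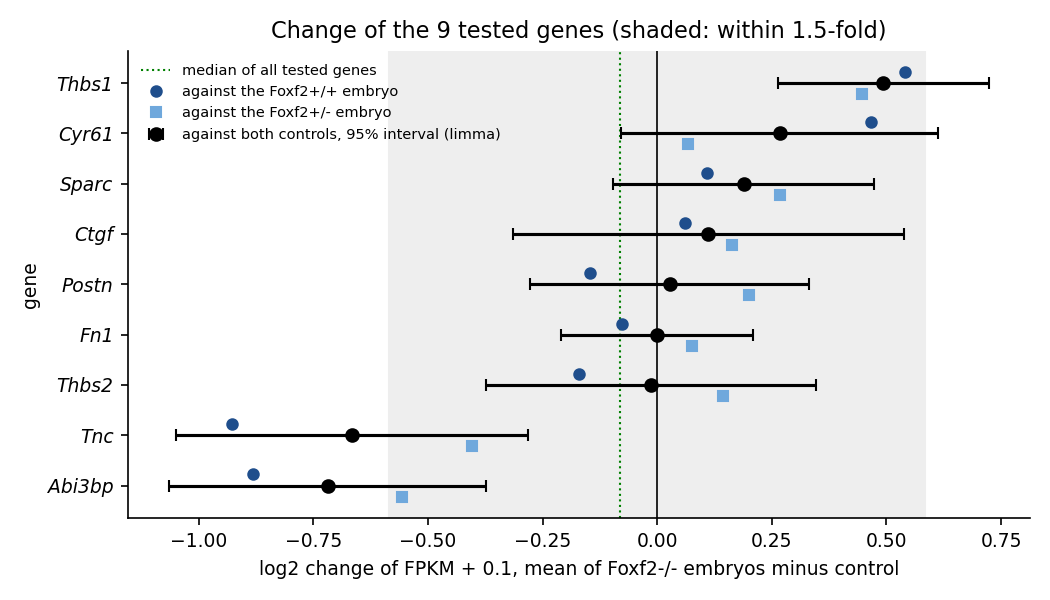
Log2 change of FPKM + 0.1 in the *Foxf2-/-* embryos for the 9 tested genes, against both controls with its 95% interval from limma (black) and against each control alone (blue); the shaded band is a change within 1.5-fold and the dotted line the median of all tested genes. *Tnc* and *Abi3bp* lie to the left and *Thbs1* to the right with intervals clear of 0. Against the wildtype alone *Tnc* and *Abi3bp* lie outside the band, and against the heterozygote alone none of the 3 does.

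*Tnc* (mm9, chr4:63620819-63681760, minus strand) encodes tenascin-C, a hexameric glycoprotein that loosens adhesion of cells to fibronectin and is deposited where epithelium and mesenchyme interact. It was listed at 63.8, 44.3, 35.4 and 31.7 FPKM. Both mutant embryos were below both controls, and the heterozygote lay between the wildtype and the mutants. The mean was 54.1 ± 13.7 FPKM (SD, n = 2) in controls and 33.5 ± 2.61 FPKM (SD, n = 2) in *Foxf2-/-* embryos, 1.59-fold lower. The log2 change of -0.67 ± 0.16 (SE; 95% interval -1.05 to -0.28) had a limma adjusted p of 0.241. It was -0.93 against the wildtype embryo and -0.40 against the heterozygote, while the controls themselves differed by 0.52. The heterozygote thus decides whether *Tnc* exceeds 1.5-fold against each of the controls taken singly.

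*Abi3bp* (mm9, chr16:56477957-56690241, plus strand) encodes an Abi3-binding matrix protein with fibronectin type III repeats, known to restrain proliferation of mesenchymal progenitors. It was listed at 5.56, 4.42, 2.91 and 3.04 FPKM. The mutant embryos were the lowest and close to each other, and the heterozygote again took the middle place. The mean was 4.99 ± 0.807 FPKM (SD, n = 2) in controls and 2.97 ± 0.0949 FPKM (SD, n = 2) in mutants. On the log2(FPKM + 0.1) scale the mutants were 1.65-fold lower. The log2 change was -0.72 ± 0.15 (SE; 95% interval -1.06 to -0.37), with a limma adjusted p of 0.177. It reached -0.88 against the wildtype and -0.56 against the heterozygote, so that it stopped just short of 1.5-fold in the second comparison. The value is a sum over 5 RefSeq entries, described with the transcript entries, and the longest entry alone gave a log2 change of -0.14.

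*Thbs1* (mm9, chr2:117937612-117952869, plus strand) and *Thbs2* (chr17:14802507-14831269, minus strand) encode thrombospondin-1 and thrombospondin-2, trimeric glycoproteins that bind Cd47 and Cd36 and restrain vessel growth. Thrombospondin-1 also releases latent Tgf-beta. *Thbs1* was listed at 7.70, 8.22, 11.5 and 11.0 FPKM. Both mutant embryos stood above both controls, and within each group the values were close. The mean of 7.96 ± 0.366 FPKM (SD, n = 2) in controls compared with 11.2 ± 0.315 FPKM (SD, n = 2) in mutants, 1.41-fold higher. The log2 change was 0.49 ± 0.10 (SE; 95% interval 0.26 to 0.72), with a limma adjusted p of 0.177, and it was similar against the wildtype (0.54) and the heterozygote (0.45). *Thbs2* was listed at 3.68, 2.93, 3.15 and 3.36 FPKM. Both mutants lay between the controls, with a log2 change of -0.013 ± 0.15 (SE; 95% interval -0.37 to 0.35), whose sign turned under both other scalings (0.065 with median ratios and 0.057 with upper quartiles). *Thbs1* was 2.10 and 2.80 times the level of *Thbs2* in the controls and 3.64 and 3.28 times in the mutants.

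Markers of other cells and of the palatal mesenchyme also differed between the embryos. Platelets store thrombospondin-1, and the 4 platelet markers summed to 4.54, 5.86, 1.11 and 3.17 FPKM, mostly from *Pf4*, which was lower in both mutants, as was *Itga2b* below 0.2 FPKM. *Ppbp*, at 0.0356, 0.0592, 0.208 and 0.245 FPKM, was higher in both mutants, as *Thbs1* was, and *Gp9* overlapped between the groups and was at 0 in the heterozygote. Of the 6 red blood cell markers, *Hba-a2*, at 1.44, 39.04, 44.1 and 112 FPKM, and *Hbb-b1*, at 6.97, 22.1, 32.99 and 67.5 FPKM, were ordered by null alleles, in the direction of *Thbs1* and opposite to *Tnc* and *Abi3bp*. Both exceeded 1.5-fold against each control, and the other 4 overlapped between the groups. The rising order was found for 5.05% of all tested genes, and 0.717% were higher by over 1.5-fold against each control. Of the 10 palatal mesenchyme markers, *Shox2*, *Meox2*, *Twist1*, *Prrx1* and *Pdgfra* were ordered by null alleles in the direction of *Tnc* and *Abi3bp*. Of all tested genes, 23.7% had this falling order. *Tbx22* was lower in both mutants without that order, *Osr1* was higher in both, and *Osr2*, *Msx1* and *Barx1* overlapped between the groups. The endothelial sum was higher in both mutants than in both controls, as *Thbs1* was, but stayed under 2 FPKM. Its highest marker by mean was *Emcn*, at 0, 0.346, 0.450 and 0.812 FPKM. *Cdh5* and *Kdr* were also higher in both mutants, *Pecam1*, *Tek* and *Tie1* overlapped between the groups, and *Cldn5* was at 0. The part of these markers in the values above was not tested.

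**Figure D3:**
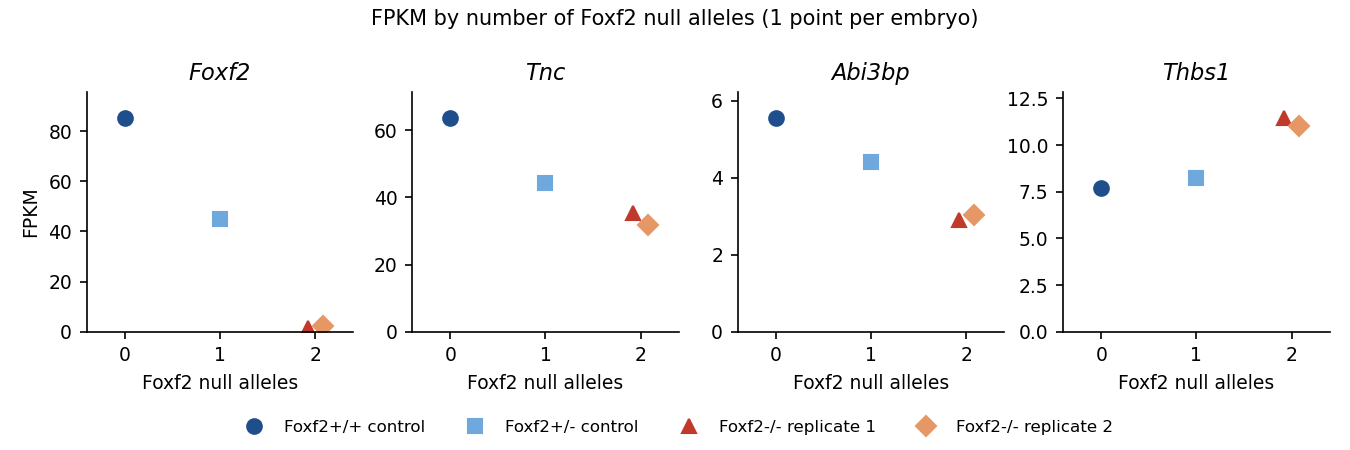
FPKM of *Foxf2*, *Tnc*, *Abi3bp* and *Thbs1* against the number of *Foxf2* null alleles, 1 point per embryo, axes from 0. *Foxf2*, *Tnc* and *Abi3bp* are highest with 0 null alleles, lower with 1 and lowest with 2, while *Thbs1* runs from 7.70 to 11.5 FPKM in the other direction.

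By the number of *Foxf2* null alleles, 3 members were ordered without overlap, as were 28.7% of all tested genes. *Tnc* and *Abi3bp* had the falling order, which 23.7% of all tested genes showed, and *Thbs1* the rising order, which 5.05% showed. These shares are for the deposited values, in which all tested genes had a median log2 change of -0.081. They were not counted under the other scalings. As only 1 embryo had 1 null allele, this order is a description. Fitted as a linear term, the log2 change per null allele was -0.46 for *Tnc* (limma adjusted p = 0.0511), -0.45 for *Abi3bp* (0.0872) and 0.29 for *Thbs1* (0.160).

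*Cyr61* (mm9, chr3:145309935-145312949, minus strand), *Ctgf* (chr10:24315248-24318489, plus strand) and *Nov* (chr15:54577257-54585594, plus strand) belong to the CCN family of cysteine-rich secreted proteins, which bind integrins and heparan sulphate. *Cyr61* and *Ctgf* are standard readouts of Yap and Taz. *Cyr61* was listed at 8.34, 11.0, 10.8 and 12.3 FPKM. The wildtype embryo was the lowest, while the heterozygote fell between the mutants. The log2 change of 0.27 ± 0.15 (SE; 95% interval -0.078 to 0.61; limma adjusted p = 0.484) was smaller than the 0.40 that separated the controls. *Ctgf*, at 1.62, 1.502, 1.71 and 1.68 FPKM, was slightly higher in both mutants. Its log2 change was 0.11 ± 0.18 (SE; 95% interval -0.32 to 0.54; limma adjusted p = 0.831), at a coverage of only 2.20 to 2.61 reads. *Cyr61* was 5.14, 7.34, 6.34 and 7.34 times the level of *Ctgf*. *Nov*, the third member of the family, was listed at 0.211, 0.138, 0.175 and 0.113 FPKM with overlapping groups. It failed the filter, had a coverage of 0.175 to 0.286 reads, and was not tested.

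*Postn*, *Sparc* and *Fn1* were the most abundant members and the ones measured at the greatest depth. *Sparc* lies at chr11:55208002-55233582 and *Fn1* at chr1:71632094-71699774 (mm9), both on the minus strand. *Postn* was listed at 602, 474, 555 and 534 FPKM. Both mutants fell between the controls, whose difference of 0.34 on the log2 scale exceeded the group difference of 0.027 ± 0.13 (SE; 95% interval -0.28 to 0.33; limma adjusted p = 0.949). *Fn1* was the steadiest, at 108, 97.4, 103 and 102 FPKM. Its mean was 103 ± 7.68 FPKM (SD, n = 2) in controls and 103 ± 0.769 FPKM (SD, n = 2) in mutants. The 95% interval of its log2 change, -0.21 to 0.21, was the narrowest of the 9 genes. *Sparc* was listed at 142, 127, 137 and 170 FPKM, with *Foxf2-/-* replicate 2 above the other embryos and replicate 1 between the controls. Its log2 change was 0.19 ± 0.12 (SE; 95% interval -0.096 to 0.47; limma adjusted p = 0.552). For 5 of the 9 genes (*Postn*, *Sparc*, *Thbs2*, *Ctgf* and *Fn1*) the 95% interval lay within a 1.5-fold change in either direction, and for 4 (*Postn*, *Thbs2*, *Cyr61* and *Fn1*) the controls differed from each other by more than the groups did. Set against *Fn1* in the same embryo, *Tnc* was at 0.589, 0.455, 0.343 and 0.310 times its level, and *Postn* at 5.56, 4.87, 5.38 and 5.23 times.

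Splicing of *Postn* could be followed from its RefSeq entries. *Postn* lies on chromosome 3 (mm9, chr3:54165031-54194961, plus strand). It is spliced in the 3′ part of its coding sequence, where cassette exons alter the carboxy-terminal region. It had 3 entries, of 3211, 3214 and 3130 bases. The 3211-base entry exceeds the shortest by 81 bases, the length of coding exon 17 (chr3:54184334-54184414), and the 3214-base entry by 84 bases, the length of coding exon 21 (chr3:54189593-54189676), as numbered in the GENCODE M1 transcript with 23 exons. The exons are shown because they tell these entries apart, in lower case and 5′ to 3′.
Postn exon 17: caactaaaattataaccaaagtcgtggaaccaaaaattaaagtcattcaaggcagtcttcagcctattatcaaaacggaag
Postn exon 21: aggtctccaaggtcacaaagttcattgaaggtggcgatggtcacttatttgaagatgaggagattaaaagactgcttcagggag
The entry matched to exon 17 took 68.0%, 66.9%, 68.8% and 66.9% of *Postn* FPKM, and the entry matched to exon 21 took 32.0%, 33.1%, 31.2% and 33.1%. The shortest entry was estimated at nearly 0 in every embryo. These shares varied by less than 2 percentage points among the 4 embryos, and the 2 mutant embryos held the highest and the lowest value. No listed entry holds both exons, so a transcript with both would be divided between them.

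*Abi3bp* had 5 entries, and its split was not stable. The 4394-base entry took 52.4%, 21.3%, 29.6% and 0.0045% of *Abi3bp* FPKM, the 4502-base entry 28.9%, 48.4%, 51.5% and 36.4%, and the 4694-base entry 17.7%, 30.3%, 18.9% and 62.1%. The mutant embryos differed from each other in all 3 of these entries, and so did the controls. At a coverage of 4.04 to 7.55 reads over the gene, no change of form between the genotypes could be read from these values. The other 8 members had 1 entry each.

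**Figure D4:**
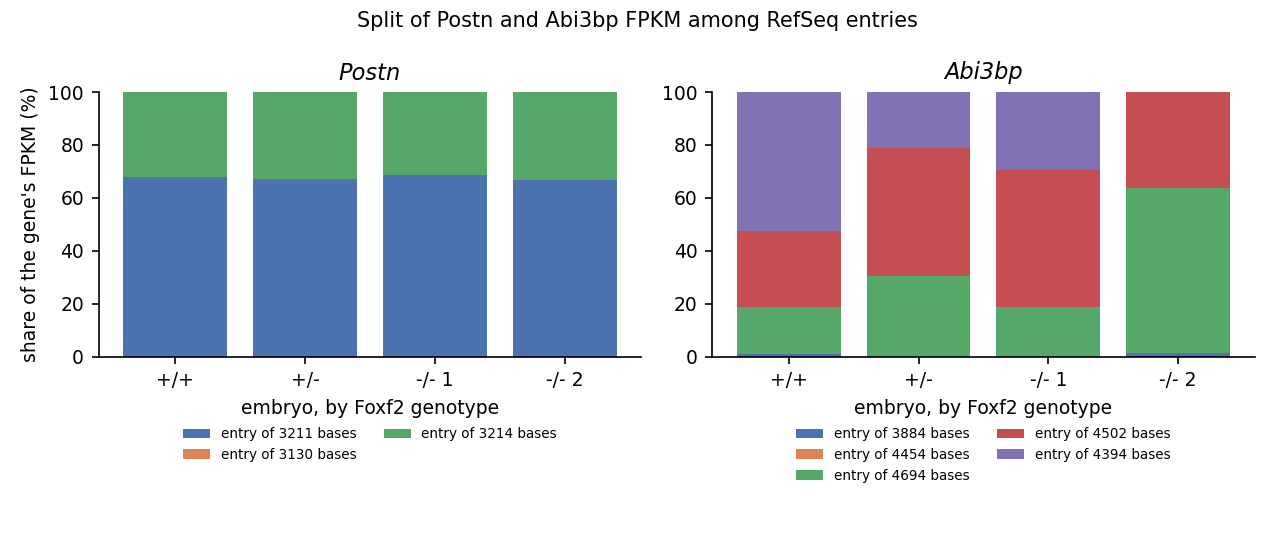
Share of the FPKM of *Postn* and of *Abi3bp* (percent) estimated for each RefSeq entry, named by its length, in each embryo. The *Postn* split stays near 67% to 33% in all 4 embryos, whereas the *Abi3bp* split changes from embryo to embryo, also between the mutants.

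Promoter sequence from RefSeq (GRCm38.p6) was at hand for 5 of the 10 genes, *Postn*, *Tnc*, *Sparc*, *Thbs2* and *Cyr61*, in 7 windows of 250 bases before a start site. Each was searched on both strands for TAAACA, the forkhead core, GGAATG, the site of the Tead partners of Yap, and TGANTCA, the AP-1 site, motifs that do not overlap. The forkhead core was found once, at -32 in *Sparc*, the Tead site once, at -103 in *Cyr61*, and the AP-1 site in none. Over 27025 genes, 13.5%, 14.4% and 7.82% held these motifs. Both windows with a match are shown, on the minus strand that carries the genes and with the match, read as its reverse complement, in capitals. The *Sparc* window is chr11:55420081-55420330 and the *Cyr61* window chr3:145649986-145650235.
Sparc: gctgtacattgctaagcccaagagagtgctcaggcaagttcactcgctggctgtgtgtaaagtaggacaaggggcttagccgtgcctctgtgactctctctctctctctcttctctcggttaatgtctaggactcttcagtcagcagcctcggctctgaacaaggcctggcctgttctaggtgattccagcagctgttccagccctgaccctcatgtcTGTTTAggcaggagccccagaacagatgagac
Cyr61: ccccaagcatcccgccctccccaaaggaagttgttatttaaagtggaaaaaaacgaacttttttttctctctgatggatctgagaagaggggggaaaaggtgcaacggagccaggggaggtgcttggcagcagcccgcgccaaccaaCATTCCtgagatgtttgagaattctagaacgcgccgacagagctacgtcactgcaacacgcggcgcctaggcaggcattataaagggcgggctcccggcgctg
Neither *Sparc* nor *Cyr61* passed the test above, and none of the *Tnc* windows held any of the motifs.

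The remaining matrix genes of the same kind were examined to place the members. Of 52 other matricellular and adhesive matrix genes, 33 were tested. limma called none in either direction, 10 lay above and 9 below both controls without overlap (9.89% and 35.8% of all tested genes), and their median log2 change was -0.086 beside -0.081 for all tested genes. Changes over 1.5-fold against both controls were seen for 2 of them, both higher in the mutants, where 1.4% of all tested genes had such a change and 0.717% a higher level. *Smoc2*, which encodes a Sparc-related calcium-binding protein, was listed at 3.67, 5.71, 9.65 and 13.4 FPKM, with a log2 change of 1.29 ± 0.23 (SE; limma adjusted p = 0.130). *Spon1*, encoding the thrombospondin-repeat protein F-spondin, was listed at 4.23, 3.97, 7.54 and 9.16 FPKM, with a log2 change of 1.003 ± 0.13 (SE; limma adjusted p = 0.0805). Both mutants were above both controls for each of them. *Sparcl1*, another Sparc relative, had the lowest change of that list at -0.47 ± 0.17 (SE).

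Among 26 receptors and binding partners of the members, 20 were tested, with no limma call, 3 above and 6 below both controls without overlap, and a median log2 change of -0.011. The groups thus did not overlap for 45% of the list, beside 45.7% of all tested genes (9.89% above and 35.8% below). *Cd47*, the thrombospondin receptor, had the highest value. It was listed at 22.03, 17.9, 30.7 and 26.4 FPKM, higher in both mutants, with a log2 change of 0.52 ± 0.13 (SE; limma adjusted p = 0.241). *Itgb3*, an integrin subunit that pairs with the alpha v chain to bind several members, had the lowest at -0.38 ± 0.22 (SE). Of 16 assembly and crosslinking genes, 11 were tested, 2 above and 2 below (36.4% without overlap, beside the same 45.7%, 9.89% above and 35.8% below), with a median of -0.040 and no limma call. *Lox*, the lysyl oxidase that crosslinks collagen and elastin, was listed at 19.5, 19.0, 25.1 and 28.1 FPKM, higher in both mutants by 0.46 ± 0.09 (SE; limma adjusted p = 0.177). *Bmp1*, a procollagen proteinase that also activates lysyl oxidase, was at -0.29 ± 0.12 (SE).

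Lists of genes that respond to the regulators of the members also had no limma call, and their shares without overlap, given with each count, stand beside 45.7% of all tested genes, 9.89% above and 35.8% below. Of 20 Yap and Taz responsive genes 17 were tested, 3 above and 5 below both controls (47.1% without overlap), with a median of -0.076. Their range ran from *Gadd45a*, a stress-induced growth arrest gene, at -0.67 ± 0.18 (SE) to *Tgfb2*, the Tgf-beta ligand, at 0.34 ± 0.10 (SE). Of 17 Tgf-beta responsive genes 15 were tested, 3 above and 3 below (40% without overlap), with a median of 0.026. *Id1*, an inhibitor of basic helix-loop-helix factors, was lowest at -0.50 ± 0.09 (SE; 65.4, 60.0, 45.9 and 43.0 FPKM; limma adjusted p = 0.150), and *Smad7*, an inhibitory Smad, was highest at 0.31 ± 0.13 (SE). Of 23 immediate early genes, which can be induced by dissociation of tissue, 16 were tested, 4 above and 3 below (43.8% without overlap), with a median of 0.037. Their changes ran from -0.33 ± 0.26 (SE) for *Fosb* to 0.31 ± 0.15 (SE) for *Zfp36*.

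**Figure D5:**
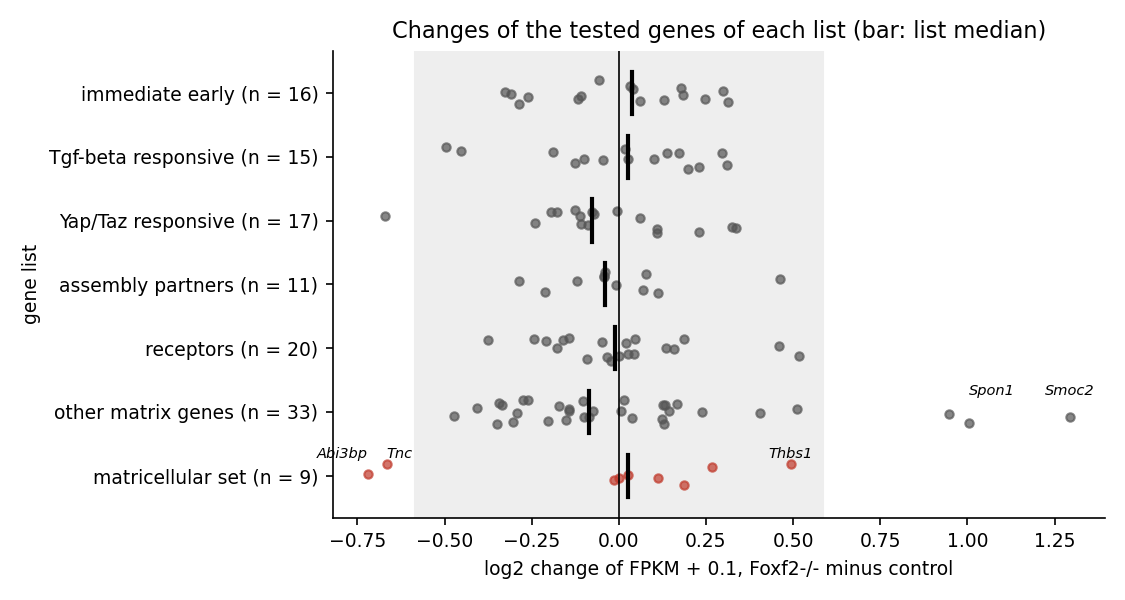
Log2 change of FPKM + 0.1 of every tested gene of the 6 lists and of the matricellular set, 1 point per gene, with the median of each list as a bar; the shaded band is a change within 1.5-fold. List medians lie between -0.086 and 0.037, and *Smoc2*, *Spon1* and *Spock3* (0.95) have the highest changes among the matrix genes.

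*Abi3bp* had the largest absolute change of the 9 genes. The genes most like it were sought by the Euclidean distance between log2 profiles over the 4 embryos, each centred on its own mean, among 6927 genes with a mean of at least 5 FPKM. *Slitrk6*, at 23.4, 19.5, 12.5 and 12.7 FPKM, was nearest with a distance of 0.0612. *Gucy1a3*, at 7.57, 5.72, 3.91 and 4.35 FPKM, followed with 0.0988, and *S100a6*, at 21.2, 16.8, 12.1 and 11.6 FPKM, with 0.1005. All 3 were highest in the wildtype, intermediate in the heterozygote and lowest in the mutants, as *Abi3bp* was, over 4 embryos only. They were chosen for likeness to it in these same embryos, so the shared order follows from that choice.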

How the data were processed

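FPKM of RefSeq transcripts were estimated by the authors from single-end reads aligned to mm9 with Tophat and Bowtie (0.12.7 in the submitters' processing notes). 1 table per embryo was deposited, without pooling, in the form that Cufflinks writes; the version, options and read length are not given in the sources used here. Coverage in the deposited tables, an estimated read depth per entry, served to compare the depth of the libraries and to describe how thinly single genes were covered. The RPKM analysis of the study was not repeated, since the tables hold no counts and the depth in reads is unknown.

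Entries of at least 200 bases were summed by gene symbol, and 10 genes with a failed estimate were left out. Genes with a mean of at least 1 FPKM over all 4 embryos were tested as log2(FPKM + 0.1), without covariates, with limma 3.58.1 (variance trend, Benjamini-Hochberg over all 11154 genes) in R 4.3.3, called at an adjusted p under 0.05 and over 1.5-fold. This scale understates changes of low genes. The fit was also run on simulated data. The planted changes were larger than those of the members, without a shift between libraries, so that run does not bear on the members. Tables were handled with Python 3.11.15, pandas 2.3.3 and numpy 2.4.6. Gene and exon positions are from GENCODE M1 (mm9). p-values rest on the spread between single embryos within each group, where the control group joins both control genotypes. They also rest on limma's variance trend over all tested genes.

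The members and gene lists were chosen with earlier results of these data known. Named were all members, *Foxf2*, and in each list the genes passing limma or changed over 1.5-fold against both controls, otherwise the highest and lowest change; for the member with the largest change, also the 3 genes most like it. *Sparcl1*, *Spock3* and the cell type markers given with values were named outside this rule, after their values were seen. 17 alternatives varied pseudocount, filter, entries, scaling, fold threshold, design and embryos.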

Additional observations from a re-analysis of the deposited data

How the results depend on the processing

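No member passed the limma threshold under any alternative. *Tnc* kept its direction over 15 alternatives (log2 -0.93 to -0.40, adjusted p 0.0511 to 0.720), as did *Thbs1* (0.29 to 0.57, 0.109 to 0.682) and *Abi3bp* (-0.88 to -0.14, 0.0872 to 0.948). No member met the 1.5-fold criterion against both controls with all embryos kept. A threshold of 1.2-fold admitted *Thbs1*, *Tnc* and *Abi3bp*, and of 11154 tested genes 304 higher and 823 lower. Leaving out the *Foxf2+/-* embryo admitted *Tnc* and *Abi3bp*, and of all tested genes 214 higher and 358 lower. Only the wildtype was then left to satisfy, so this rule is looser and restates the changes against the wildtype. Leaving out *Foxf2-/-* replicate 2 admitted *Abi3bp*, and of all tested genes 68 higher and 172 lower. Near 0 the sign turned. *Postn* was -0.048 per null allele and ranged from -0.15 to 0.20 with 1 embryo left out, -0.00019 without *Foxf2-/-* replicate 1. *Thbs2* (0.065 and 0.057) and *Fn1* (0.080 and 0.072) turned under median ratio and upper quartile scaling, and with 1 embryo left out ranged from -0.17 to 0.14 and from -0.076 to 0.076. The members' median of 0.027 ranged from -0.076 to 0.14 with 1 embryo left out.

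The limma count of 7 became 13 with a pseudocount of 1, 27 with entries of any length, 12 with upper quartile scaling, 20 with a mean for each genotype, and 0 without a filter (1777 at unadjusted p under 0.05) or without a variance trend (1264); it ranged from 7 to 38 with 1 embryo left out, 38 without the *Foxf2+/-* embryo. The 156 genes over 1.5-fold against both controls became 67 with a pseudocount of 1 and 639 without a filter. They became 49 at 5 FPKM in at least 1 embryo, 291 with entries of any length, 36 at 2-fold and 1127 at 1.2-fold. With 1 embryo left out the count ranged from 213 to 572. It was 292 without the *Foxf2+/+* embryo and 572 without the *Foxf2+/-* embryo. In these cases only 1 control was left to satisfy, so the rule is looser and the count cannot fall. *Foxf2* lost its call, at a log2 change of -5.03, without a filter (adjusted p = 0.155), without a variance trend (0.0592) and with the longest entry only (0.249), and as a linear term per null allele (-2.91, 0.0667). In the wider lists 0 calls became 1 under both scalings (*Spon1*) and 1 without the *Foxf2+/-* embryo (*Smoc2*). The cause was not tested. No paired analysis was made, since the embryos are littermates and the labels match no mutant embryo to a particular control. With 2 embryos a group and coverage under 8 reads for *Abi3bp*, *Thbs2* and *Ctgf*, small differences of these genes were not detectable.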
